A study of Caenorhabditis elegans with 4 samples.

Results

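The eggshell and egg surface genes described here are 10 genes of the nematode Caenorhabditis elegans, taken by name: cbd-1, egg-1, egg-2, egg-3, chs-1, gna-2, perm-2, perm-4, cpg-1 and cpg-2. Every gene had exactly 1 probe that the platform annotation pairs with that symbol alone, so all 10 of 10 could be measured, among 14935 genes tested in all. The arrays compared RNA from 4 numbered preparations (preps) of wild-type adults, 1 prep on each array, with a wild-type mixed reference RNA whose make-up the labels do not give. All groups are wild type, the labels name no treatment, age or sex, and they do not say whether each prep came from its own culture. Every value below is a log2 ratio of the 2 array channels, in which adult over reference is the likely direction, since the adult RNA is in channel 2 of every array and the table does not state the numerator.

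The C. elegans eggshell is built in layers around the newly fertilised egg as it leaves the spermatheca. The outermost, vitelline layer is laid down on the oocyte before fertilisation, the chitin layer beneath it is made by a chitin synthase of the egg membrane, and the layer inside that is made of chondroitin proteoglycans released from cortical granules. Sperm entry, the start of shell synthesis and the block to further sperm depend on proteins at the egg surface. The RNAs for these proteins are made in the hermaphrodite germline, in growing oocytes.

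Each array gave values for 21243 to 21501 of the 21632 probes, with ratios whose SD ran from 0.756 on prep 3 to 0.921 on prep 1. The arrays correlated with Pearson's r between 0.659 and 0.755 over the probes, which are not independent replicates. Preps 3 and 4, which share the date in their titles, had the highest correlation. In whole worms, more cells of a type and more RNA per cell cannot be told apart. The dyes were not swapped, so a channel effect on a gene and a difference between adults and reference cannot be told apart either.

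All 10 genes had a positive mean ratio, and 8 of 10 had an adjusted p under 0.05 in limma with none negative. Of all genes tested, 23.2% were called positive and 21.2% negative. The genes of the chitin pathway, the proteoglycans, the egg-surface proteins and cbd-1 made up the 8, and the 2 not called were perm-2 and perm-4. The median of the 10 means was 0.77, with an SD of 0.42 over the 4 array medians, beside a median of 0.064 for all genes tested. A mean of at least 1, which is a likely 2-fold excess in adults, was called for 3 of 10 genes, against 6.22% of all genes tested. Without prep 2 the count of called genes was 5, and without prep 4 it was also 5. Over all genes tested, positive calls went from 3468 to 2523 without prep 2 and to 2644 without prep 4. The calls of egg-2, egg-3 and cpg-2 were the ones lost in each case.

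The vitelline layer holds CBD-1, a protein with chitin-binding domains, and the partner proteins PERM-2 and PERM-4, which are needed for the shell to become a barrier. On preps 1 to 4, cbd-1 (CELE_H02I12.1, chromosome IV) had log2 ratios of 0.61, 1.44, 1.05 and 1.70. It was positive on every prep, lowest on prep 1 and highest on prep 4, and its mean of 1.20 ± 0.48 (SD, n = 4) was the highest of the 10 genes, a 2.30-fold ratio. The limma adjusted p was 0.0018, and the mean ranked 592 from the top among all genes tested.

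The ratios of the other vitelline genes lay below that of cbd-1 on all 4 preps. Here and below, a gene with the higher ratio need not have more RNA, since each ratio is relative to the reference. On the same arrays, perm-2 (CELE_C44B12.1) had 0.11, 0.44, 0.21 and 0.42, with a mean of 0.29 ± 0.16 (limma adjusted p = 0.12). Its neighbour perm-4 (CELE_C44B12.5), the gene next to it on chromosome IV, had 0.30, -0.16, 0.098 and 0.73, with a mean of 0.24 ± 0.38 (limma adjusted p = 0.28). That mean was 0.080 without prep 4 and 0.38 without prep 2. The limma 95% intervals included 0 for each, and ran from -0.024 to 0.61 for perm-2 and from -0.15 to 0.64 for perm-4. The preps did not order these neighbours alike, as perm-2 was above perm-4 on preps 2 and 3 and below it on preps 1 and 4. The difference between them was 0.050 ± 0.41 (exact sign-flip permutation test, two-sided, p = 0.88, adjusted over 16 pairs of genes 0.93, n = 4).

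**Figure D1:**
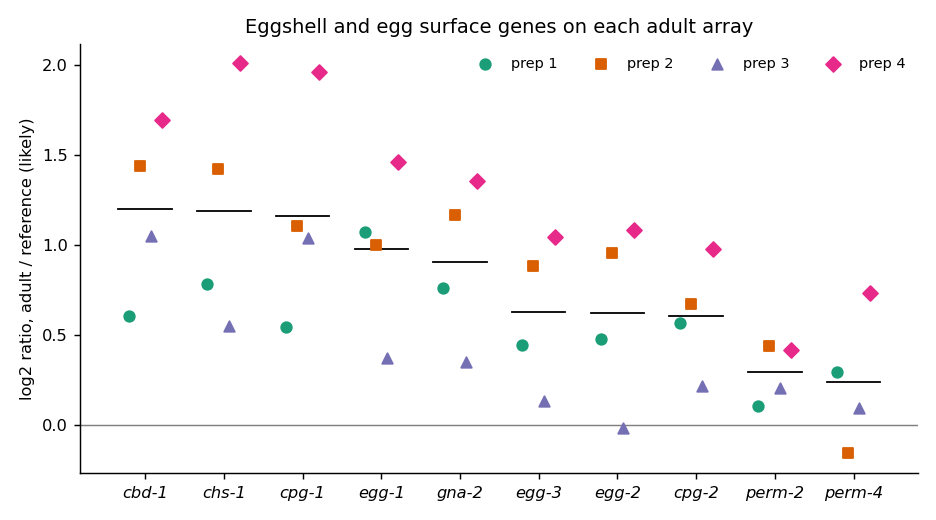
Log2 ratio of each of the 10 genes (vertical axis, likely adult over reference) on each adult array, with genes ordered by mean along the horizontal axis. Points are single arrays, coloured and shaped by prep, and black bars are means of 4 arrays. Prep 4 is the highest point for 9 of 10 genes and prep 3 the lowest for 6 of 10.

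The chitin layer needs a supply of UDP-N-acetylglucosamine and an enzyme to polymerise it. GNA-2 is a glucosamine-6-phosphate N-acetyltransferase, which makes a precursor of that sugar nucleotide, and CHS-1 is the chitin synthase of the egg. On preps 1 to 4, chs-1 (CELE_T25G3.2, chromosome I) had 0.79, 1.42, 0.55 and 2.01. The value on prep 4 was the highest that any of the 10 genes reached on any array. Its mean was 1.19 ± 0.66, a 2.28-fold ratio (limma adjusted p = 0.0047), and its range over the arrays, 1.46, was the widest of the 10. For gna-2 (CELE_T23G11.2, chromosome I) the values were 0.77, 1.17, 0.35 and 1.36, in the same order of preps as chs-1, with a mean of 0.91 ± 0.45 (limma adjusted p = 0.0055).

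Each of these enzymes has a relative encoded elsewhere in the genome. The ratio of chs-2, the chitin synthase gene known for the pharynx, was -0.36 ± 0.46 (limma adjusted p = 0.16). That of gna-1, the other N-acetyltransferase gene, was -0.24 ± 0.36 (limma adjusted p = 0.28). The ratio of the egg gene was above that of its relative on all 4 preps in both cases. The difference was 1.55 ± 0.74 for chs-1 minus chs-2 and 1.15 ± 0.75 for gna-2 minus gna-1. With 4 arrays an exact two-sided sign-flip permutation test cannot go below p = 0.13, which is the value of each, and adjusted over the 16 pairs of genes compared here each was 0.25.

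**Figure D2:**
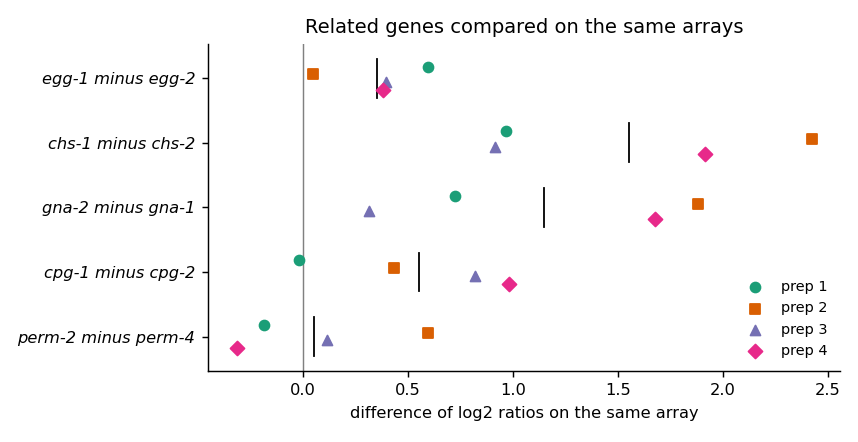
Difference between the log2 ratios of related genes on the same array (horizontal axis) for 5 pairs of genes (vertical axis). Points are the 4 preps and black bars their means. The points of chs-1 minus chs-2, gna-2 minus gna-1 and egg-1 minus egg-2 all lie above 0, and those of perm-2 minus perm-4 fall on each side of it.

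The chondroitin proteoglycans CPG-1 and CPG-2, which carry chitin-binding domains, form the layer beneath the chitin. On preps 1 to 4, cpg-1 (CELE_C07G2.1, chromosome III) had 0.54, 1.11, 1.04 and 1.96, with a mean of 1.16 ± 0.59, a 2.24-fold ratio (limma adjusted p = 0.0037). Values of 0.57, 0.67, 0.22 and 0.98 were measured for cpg-2 (CELE_B0280.5, chromosome III), with a mean of 0.61 ± 0.31, a 1.53-fold ratio (limma adjusted p = 0.016). On prep 1 cpg-1 minus cpg-2 was -0.023, and cpg-1 was higher on the other preps, by 0.43, 0.82 and 0.98. Over the 4 arrays the difference was 0.55 ± 0.45 (exact sign-flip permutation test, two-sided, p = 0.25, adjusted over the 16 pairs 0.44, n = 4). The order of the arrays also differed between them, since prep 1 was the lowest for cpg-1 and prep 3 for cpg-2.

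EGG-1 and EGG-2 are membrane proteins of the oocyte with LDL receptor repeats that sperm entry depends on, and they are paralogs. On preps 1 to 4, egg-1 (CELE_B0244.8, chromosome III) had 1.07, 1.00, 0.38 and 1.46, with a mean of 0.98 ± 0.45, a 1.97-fold ratio (limma adjusted p = 0.0040). Values of 0.48, 0.96, -0.016 and 1.08 were measured for egg-2 (CELE_R01H2.3, chromosome III), with a mean of 0.63 ± 0.50, a 1.54-fold ratio (limma adjusted p = 0.034). The value of egg-1 was the higher on all 4 preps, by 0.048 on prep 2 and by 0.59 on prep 1. The mean difference was 0.35 ± 0.23 (exact sign-flip permutation test, two-sided, p = 0.13, the smallest that 4 arrays can give). Probe sequences were not used here, so how far each probe also reads the paralog was not tested.

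EGG-3 is a protein tyrosine phosphatase-like protein that lacks the activity of that enzyme family, and it holds CHS-1 and the kinase MBK-2 at the cortex of the oocyte. On preps 1 to 4, egg-3 (CELE_F44F4.2, chromosome II) had 0.45, 0.88, 0.14 and 1.04, with a mean of 0.63 ± 0.41, a 1.55-fold ratio (limma adjusted p = 0.023). Its values tracked those of egg-2 closely, with a difference (egg-2 minus egg-3) between -0.15 and 0.073 on any array and a mean difference of -0.0021 ± 0.10. Its partner chs-1 was above it on all 4 preps, by 0.56 ± 0.28 (exact sign-flip permutation test, two-sided, p = 0.13, n = 4).

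The call of egg-2 was lost with the title date as a block (limma adjusted p = 0.056). Leaving out prep 2 gave limma adjusted p-values of 0.12 for egg-2, 0.084 for egg-3 and 0.054 for cpg-2. Leaving out prep 4 gave 0.13, 0.089 and 0.063 for the same genes. For cbd-1, chs-1, cpg-1, egg-1 and gna-2, the highest adjusted p without 1 prep was between 0.0098 and 0.026.

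**Figure D3:**
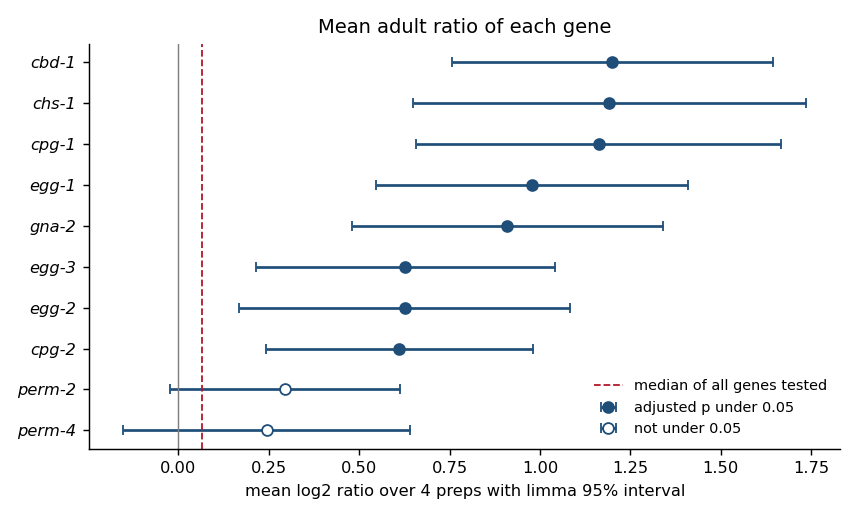
Mean log2 ratio over 4 preps (horizontal axis) for each of the 10 genes (vertical axis), with limma's 95% interval as bars. Filled points have an adjusted p under 0.05, and open points, perm-2 and perm-4, do not. The dashed line is the median of all genes tested, 0.064.

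In the order of their means, cbd-1, chs-1 and cpg-1 came at the top at 1.20, 1.19 and 1.16, and the differences between neighbours in this order, 0.0083 ± 0.36 and 0.030 ± 0.36, were smaller than their spread over the arrays. Next came egg-1 at 0.98 and gna-2 at 0.91, whose difference was 0.069 ± 0.19. A step of 0.28 ± 0.050 separated gna-2 from egg-3, and it lay between 0.21 and 0.32 on all 4 preps. The values of egg-3, egg-2 and cpg-2 lay between 0.61 and 0.63. A step of 0.32 ± 0.25 then led to perm-2, positive on all 4 preps but only 0.0099 in size on prep 3. Of the 45 pairs of genes, 28 kept their order on all 4 preps. Among them, chs-1 lay above 6 of the 9 others on every prep, and perm-4 below 7 and perm-2 below 6 of the 9.

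The 10 genes shared a pattern across the preps. The contrast of preps 4 and 3 and the orders of preps below were chosen with the values of these genes in view. The shares of all genes beside them are thus a description and no test. The 10 genes were measured on the same 4 arrays, so they are not independent replicates. Every gene had a higher ratio on prep 4 than on prep 3, a difference found in 52.7% of the 14639 genes with 4 values. The median difference of the 10 genes was 0.91 (from 0.21 for perm-2 to 1.46 for chs-1), beside 0.035 for all genes. It was at least 0.5 for 9 of 10 genes, against 15.9% of all genes, and at least 1 for 4 of 10 (chs-1, egg-1, egg-2 and gna-2), against 2.27%. Prep 4 was the highest array for 9 of 10 genes, against 29.9% of all genes, and for 6 of 10 prep 4 was the highest and prep 3 the lowest, against 9.26%. The full order of prep 3, prep 1, prep 2 and prep 4 from low to high held for chs-1, gna-2, egg-3, egg-2 and cpg-2, and for 6.03% of all genes. Preps 3 and 4, the extreme arrays for 6 of 10 genes, are those that share a title date. The lowest array was prep 1 for cbd-1, cpg-1 and perm-2 and prep 2 for perm-4, and perm-2 was highest on prep 2.

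**Figure D4:**
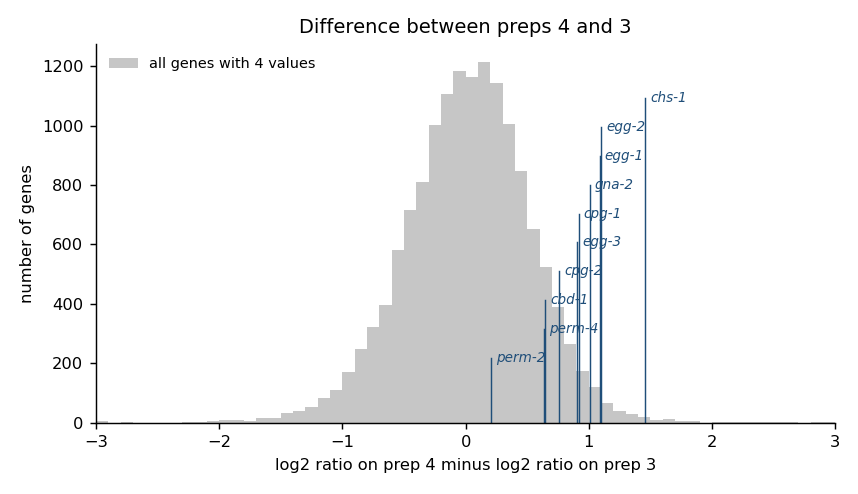
Number of genes (vertical axis) by the log2 ratio on prep 4 minus that on prep 3 (horizontal axis, bins of 0.1) for the 14639 genes with 4 values, with 9 genes beyond the axis counted in the end bins. Blue lines of staggered height mark the 10 eggshell and egg surface genes, all to the right of 0. The furthest is chs-1 at 1.46.

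On preps 1 to 4 the median of the 10 genes was 0.56, 0.98, 0.28 and 1.22. On the same arrays the median of 21 other oocyte genes was 0.37, 0.88, 0.41 and 1.32, so preps 2 and 4 were the higher and preps 1 and 3 the lower arrays in both sets. That list held 17 genes called positive and none negative, beside 23.2% and 21.2% of all genes tested. It was led by the yolk receptor gene rme-2 at 1.35 ± 0.51 (limma adjusted p = 0.0013) and by mei-1, of the meiotic spindle katanin, at 1.33 ± 0.48 (limma adjusted p = 0.0012). The eggshell median minus the oocyte median was 0.016 ± 0.15, positive on 2 of 4 preps, so it was smaller than its spread over the arrays. The sign of this small difference turned without prep 1 (-0.041), without prep 2 (-0.011) and with 1 probe for each gene (-0.038).

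The sperm genes had their highest median on prep 3. The median of 28 of them was 0.79, 0.89, 1.03 and 0.95 on preps 1 to 4. Of the 28, 20 were called positive and none negative, beside 23.2% and 21.2% of all genes tested. The largest means were those of ssp-10 at 2.77 ± 0.37 and ssp-19 at 2.48 ± 0.39 (limma adjusted p = 3.4e-05 and 4.9e-05). The median over the sperm genes of prep 4 minus prep 3 was -0.36, against 0.82 for the other oocyte genes and 0.91 for the 10 genes. The eggshell median was below the sperm median by 0.75 on prep 3 and by 0.23 on prep 1, and above it by 0.091 on prep 2 and by 0.27 on prep 4. The mean of this difference was -0.15 ± 0.45, smaller than its spread, and it was 0.042 without prep 3. The part of the oocyte and sperm content of the preps in the ratios of the 10 genes was not tested.

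**Figure D5:**
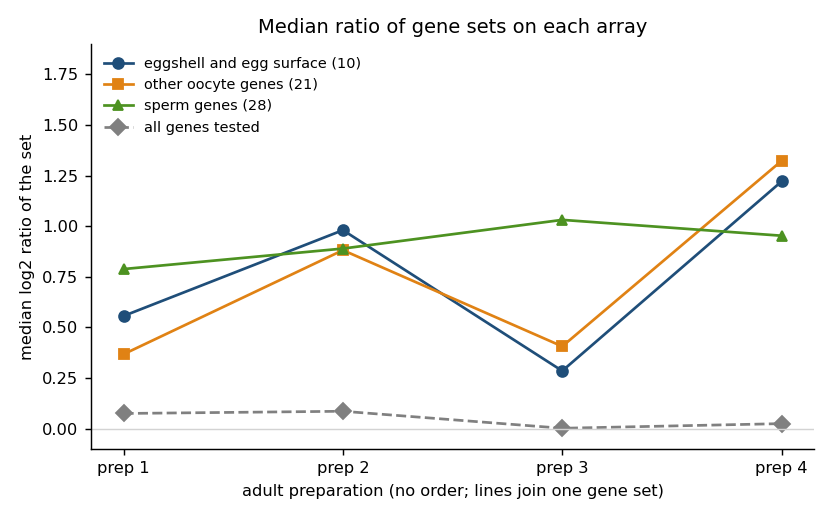
Median log2 ratio (vertical axis) of 10 eggshell and egg surface genes, 21 other oocyte genes, 28 sperm genes and all genes tested on each adult array (horizontal axis). Lines only join the values of one set. The eggshell and oocyte medians are lowest on preps 1 and 3 and highest on prep 4, the sperm medians lie between 0.79 and 1.03, and those of all genes lie below 0.1.

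Other genes of chitin, chondroitin, egg activation and barrier lipids are described by the counts of those called, beside the 23.2% positive and 21.2% negative of all genes tested. Of 14 tested genes for chitin precursors, chitin binding and chitin breakdown, 4 were called positive and 3 negative, near those shares, with a median of -0.13. The negative ones were chtb-1 at -1.99 ± 0.73 (limma adjusted p = 0.00062) and the chitinase genes cht-2, at -1.55 ± 0.70 on 3 arrays (limma adjusted p = 0.0034), and cht-1, at -1.52 ± 0.55 (limma adjusted p = 0.00091), which was named after its values were seen. The positive ones, named after their values were seen, were pgm-3 at 0.77 ± 0.32, gfat-2 at 0.72 ± 0.32, hxk-2 at 0.49 ± 0.33 and hxk-1 at 0.41 ± 0.22. Of these, pgm-3 and gfat-2 encode enzymes of the route to UDP-N-acetylglucosamine, and the hexokinases phosphorylate glucose. The limma adjusted p was 0.0061 for pgm-3, 0.0084 for gfat-2, 0.040 for hxk-2 and 0.048 for hxk-1.

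Chondroitin genes, whose products build and carry the sugar chains found on proteoglycans, had positive means in 9 of 9 tested cases, where 8119 of 14935 genes tested had one. Of these, 5 were called positive, against 23.2% of all genes tested, and none negative, with a median of 0.50. The largest means were those of sqv-1, a UDP-glucuronate decarboxylase gene, at 0.75 ± 0.26 (limma adjusted p = 0.0052) and of mig-22, a chondroitin polymerising factor gene, at 0.71 ± 0.068 (limma adjusted p = 0.0033). The proteoglycan gene cpg-4 had 0.50 ± 0.31 (limma adjusted p = 0.035), and cpg-3 had 0.42 ± 0.48 (limma adjusted p = 0.11). Both were named after their values were seen.

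Of 13 egg activation genes, 5 were called positive and 1 negative, beside 23.2% and 21.2% of all genes tested, with a median of 0.58. The positive ones include spe-11, which is also in the sperm list, and pos-1, which is also in the oocyte list. The most negative was cav-1, the caveolin gene, at -2.22 ± 0.47 (limma adjusted p = 9.7e-05), and the most positive was egg-4, which encodes another phosphatase-like protein of the oocyte cortex, at 1.29 ± 0.22 (limma adjusted p = 0.00034). The kinase gene mbk-2, the partner of EGG-3 and named for that reason, had 0.060 ± 0.44 (limma adjusted p = 0.81). Of 13 genes listed here for lipids of the permeability barrier, 5 were called positive and 3 negative, with a median of 0.33. Beside these counts stand the same 23.2% and 21.2% of all genes tested. Whether each listed gene acts in the eggshell was not tested. The acyl-CoA synthetase genes acs-1 and acs-20 had the largest means, of opposite sign, at 1.41 ± 0.31 (limma adjusted p = 0.00035) and -1.22 ± 0.097 (limma adjusted p = 0.00029).

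The genes whose 4 values lay closest to the mean profile of the 10 genes were found by Euclidean distance over the 4 arrays among 14629 other genes. The mean profile was 0.57, 0.89, 0.40 and 1.27 on preps 1 to 4. The nearest 5 were F41G3.6, gln-6, lrr-1, marc-3 and pmlr-1, at distances between 0.104 and 0.144, where the median of the genes compared was 1.80. All 5 lay closer to this profile than any of the 10 genes themselves, whose distances ran from 0.351 for gna-2 to 1.25 for perm-4. That follows largely from the picking of the smallest distances among 14629 genes. Of the nearest, F41G3.6 had 0.63, 0.87, 0.48 and 1.31, and gln-6 had 0.64, 0.91, 0.33 and 1.32. The distances rest on 4 arrays and are a description.

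None of the 10 genes is on the X chromosome or on chromosome V. They lie on I (2 genes), II (1), III (4) and IV (3), where 32.8%, 26.1%, 30.8% and 29.2% of the genes tested were called positive, against 9.43% on X and 17% on V. Read against the autosomes that hold them, 8 of 10 called positive compares with shares between 26.1% and 32.8%.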

How the data were processed

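The authors deposited log2 ratios, with 1 value for each probe on each array. That the scale is log2 follows from the values, because 2 raised to the deposited log2 value is a ratio with 3 decimals (within 0.00001) for at least 99.93% of the spots of each array. How the authors corrected background, centred or normalized the arrays, and which channel is the numerator, the sources used here do not say. Array medians lay between -0.0043 and 0.0496. Signal over background is unknown, and 4 arrays limit how precise a mean can be.

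Of 16450 probes with 1 symbol in the platform annotation, a RefSeq gene (WBcel235) was found for 16360 through the gene ID and for 8 through an accession. Coordinates are left out, since the labels name no build. Probes of a gene were averaged on each array. Genes with at least 3 values entered a limma fit (version 3.58.1, R 4.3.3; intercept, eBayes), two-sided against 0. P-values were adjusted by Benjamini-Hochberg over 14935 genes, and calls made below 0.05. P-values measure the spread between these preps and leave out that of the reference. Means are followed by the SD over 4 arrays. The fit was tested on simulated data with known changes in 200 genes. It called 0% of changes of 0.5, 44% of 1, 84% of 2 and 98% of 3, with 6 false calls. Far more genes, 6639, were called in the real data, so these shares do not carry over directly.

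Members and lists were chosen with earlier results of these data known, and list medians are given with no test. The text names all members, the 2 genes with the largest mean in size of each list, the 5 nearest profiles the relatives chs-2 and gna-1, and genes it says were named for another reason or after their values were seen. Alternatives were centring, scaling, 1 probe per gene, updated symbols, minimum arrays, a robust prior, array weights, the title date as a block, a minimum size, and leaving out each prep.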

Additional observations from a re-analysis of the deposited data

Results flagged for a closer look

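Of 27 sets of 4 values examined for 1 array far from the others, only that of acs-20, an acyl-CoA synthetase gene of the permeability barrier list, stood apart, where chance gives about 1 in 20. Its log2 ratio was -1.07 on prep 4 and between -1.28 and -1.26 on preps 1 to 3, so the gap to the nearest array made up 0.898 of the whole range. None of the 10 eggshell and egg surface genes, nor their median, had such an array.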

How the results depend on the processing

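The count of the 10 genes called positive was 8 under each of the alternatives except the title date as a block (7), a mean of at least 1 in size added (3, a subset by construction), and leaving out 1 prep (5 to 8). The median of the 10 means ran from 0.62 to 0.97 without 1 prep, and was 0.75 with arrays centred on their medians and 0.72 with them scaled too. For single genes, 89 of 90 values under the other settings and 34 of 40 without 1 prep kept their sign and their side of the threshold, 7 lost the call, and none turned. Many of the 90 were fixed in advance, since each of the 10 genes had 1 probe and values on all 4 arrays. For them 1 probe per gene, updated symbols and minimum arrays could not change a mean, nor could a robust prior. Under these settings only the adjusted p could move. The eggshell median minus the oocyte median was -0.038 with 1 probe per gene, and between -0.041 and 0.062 without 1 prep. The eggshell median minus the sperm median lay between -0.30 and 0.042 without 1 prep. The cause of these turns was not tested. The block used a correlation of 0.271 from squared differences between arrays, chosen after seeing the data because limma's duplicateCorrelation gave no value. No paired analysis was possible because the 4 arrays form 1 group.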

Other observations

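Some genes outside the 10 members, named after their values were seen, also act in eggshell formation or at the egg surface. In the permeability barrier list, perm-1 had log2 ratios of 0.71, 1.30, 0.37 and 1.44 on preps 1 to 4, with a mean of 0.96 ± 0.50 (limma adjusted p = 0.0059). The acyltransferase gene dgtr-1 had 0.76, 1.18, 0.30 and 1.08, with a mean of 0.83 ± 0.39 (limma adjusted p = 0.0062). For each of these, prep 3 was the lowest array and preps 2 and 4 were the highest. By contrast perm-5 had values between 0.44 and 0.61 on all 4 arrays, with a mean of 0.51 ± 0.074 (limma adjusted p = 0.015). These are not all of the barrier list, which held 5 genes called positive and 3 negative. The shares of all genes tested were 23.2% and 21.2%. Among the negative ones, mboa-1 had a mean of -0.80 ± 0.28 (limma adjusted p = 0.0043). The syntaxin gene syx-4 of the egg activation list had a mean of 1.10 ± 0.26 (limma adjusted p = 0.00088).

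In the barrier list, some genes named after their values were seen had lower ratios on preps 1 and 2 than on preps 3 and 4. The acetyl-CoA carboxylase gene pod-2 had -1.49 and -1.25 on preps 1 and 2, and 0.25 and 0.40 on preps 3 and 4, which share a title date. Its mean was -0.52 ± 0.99 (limma adjusted p = 0.22). The fatty acid synthase gene fasn-1 had -1.54, -0.98, -0.12 and -0.26 on the same preps, with a mean of -0.73 ± 0.66 (limma adjusted p = 0.037). With smaller steps, sptl-1 had the same order, at 0.085, 0.44, 0.47 and 0.49 on preps 1 to 4. The elongase genes elo-2, at 0.70, 0.27, 0.63 and 0.21, and elo-1, at 0.13, 0.27, 0.23 and 0.71, had no such order. Outside this list, chtb-1 and cht-1 of the chitin list also had lower ratios on preps 1 and 2. The share of all genes with this order was not counted. The titles of preps 1 and 2 carry later dates, on consecutive days, so this split of the preps follows the title dates. The title date block above treated preps 1 and 2 as separate dates. Whether the date had a part in the values of any of these genes was not tested.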
